A study of Homo sapiens with 72 samples.

Results

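The early growth response transcription factors EGR1, EGR2, EGR3 and EGR4 and their corepressors NAB1 and NAB2 were followed by population RNA-seq in U2OS cells, a human osteosarcoma cell line. These 6 genes, of 60279 listed, were chosen by name with earlier results of the same data known. EGR2 and EGR4 had been picked out because they stood highest above DMSO with homoharringtonine and because 1 DMSO well, DMSO 10, carried extra reads of them. Their levels in those wells are therefore given as a description, with no test. The series held 72 wells, all U2OS cells grown alike and collected after 12 h. The 18 DMSO wells received solvent, and 6 compounds were given at 100, 1000 or 10000 nM, with 3 wells for each compound and dose. Homoharringtonine blocks protein synthesis at the ribosome, triptolide blocks transcription by RNA polymerase II, nilotinib inhibits tyrosine kinases, MK-2206 inhibits AKT, pyrazolanthrone inhibits JNK kinases and miglitol inhibits intestinal glucosidases. Nothing says whether wells came from separate cultures, so a p-value here measures the spread between wells only.

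In GRCh38, with names from GENCODE 44, EGR1 lies on chromosome 5 at 138465479 to 138469303 (plus strand) and EGR2 on chromosome 10 at 62811996 to 62819167 (minus strand). EGR3 lies on chromosome 8 at 22687659 to 22693480 and EGR4 on chromosome 2 at 73290929 to 73293701, both on the minus strand. NAB1 lies on chromosome 2 at 190646746 to 190692766 and NAB2 on chromosome 12 at 57089043 to 57095476, both on the plus strand. All are protein-coding, and a value here covers the whole gene, without telling exons apart. The 3′ end of NAB2 overlaps that of STAT6, which is read from the other strand. The kit kept strand, but whether the counting used it is not given in the sources used here, so STAT6 is printed where NAB2 moved.

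The EGR proteins are zinc finger factors that bind GC-rich DNA. They belong to the immediate early genes, which growth factors, stress and kinase signals switch on within minutes, without new protein synthesis, and whose mRNAs are short-lived. NAB1 and NAB2 bind EGR factors and repress transcription driven by them. EGR1 is widely expressed, EGR2 is best known for myelination, and EGR3 and EGR4 are mostly described in neurons, muscle spindles or the germ line.

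The DNA just upstream of the annotated starts of EGR1, EGR2 and EGR4 is shown because these were the members that were higher with homoharringtonine. The sequences come from RefSeq's promoter windows (GRCh38.p14), cut so that none holds annotated transcript. They are chr5:138465229-138465478 (plus strand), chr10:62819168-62819417 (minus strand) and chr2:73293702-73293798 (minus strand), written 5′ to 3′, with matches to the CArG box, the letters bound by serum response factor (SRF), in capitals.
EGR1: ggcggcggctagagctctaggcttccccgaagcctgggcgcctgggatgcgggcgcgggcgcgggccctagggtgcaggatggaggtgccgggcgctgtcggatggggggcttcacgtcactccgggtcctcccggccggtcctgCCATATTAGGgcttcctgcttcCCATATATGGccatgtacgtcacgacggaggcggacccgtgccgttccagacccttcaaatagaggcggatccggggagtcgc
EGR2: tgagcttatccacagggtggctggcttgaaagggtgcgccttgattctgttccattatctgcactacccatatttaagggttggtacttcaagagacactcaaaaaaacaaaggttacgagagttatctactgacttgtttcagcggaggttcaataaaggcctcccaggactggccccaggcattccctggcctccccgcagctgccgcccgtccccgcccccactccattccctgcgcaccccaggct
EGR4: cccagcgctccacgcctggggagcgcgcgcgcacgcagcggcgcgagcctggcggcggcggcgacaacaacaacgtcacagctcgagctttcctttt
The EGR1 window held 2 CArG boxes, which began 105 and 83 bases before the start, while 1.16% of 34943 windows of 250 bases upstream of RefSeq starts held 1 or more. The EGR2 window above held none, although the window of another RefSeq start of EGR2, inside the gene at 62816366, held 1 at 71 bases before it. None was in the EGR4 window. On both strands, the letters GCGTGGGCG and GCGGGGGCG, which EGR zinc fingers bind, were searched too, and 0.721% and 4.71% of all windows held them. Neither was in the windows of EGR1, EGR2 or EGR4. Among the starts of NAB1, 1 window held GCGTGGGCG once, and the same 2 matches to GCGGGGGCG, which overlap each other, lay in the windows of 2 neighbouring starts. The NAB2 window held GCGGGGGCG once, 62 bases before the RefSeq start at 57089114. The search read all 250 bases before each RefSeq start, without the cut made for the sequences above. The NAB1 and NAB2 matches lie inside those genes as placed here. The EGR3 window was not analysed here. The letters TGACGTCA and CCGGAA, in 1.63% and 14.5% of windows, were in no window of the other 5 genes. These matches are descriptions, and no binding was measured.

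Depth, as the sum of expected counts per well without spike-ins, had a median of 38.3 mil and reached 68.3 mil. Of the 72 libraries, 3 were below 10 mil, namely triptolide 100 nM replicate 2 (70414 counts), DMSO 10 (458921 counts) and triptolide 1000 nM replicate 1 (9520374 counts). A count of 3 was worth 42.6 CPM (counts per mil) in the first, 6.54 CPM in the second and 0.315 CPM in the third, and a count of 0 allows a level up to that. Intervals and floors cover counting error only. Of 8 bone and osteosarcoma markers, SPARC had a median of 2137 TPM and COL1A1 of 452 TPM in the DMSO wells, while RUNX2 was at 3.81, BGLAP at 0.425, COL1A2 at 0.07 and SP7 at 0 TPM. Of the markers of other cells, PTPRC, CD3E, PECAM1 and ALB were at or near 0 TPM, while KRT8 was at 255, EPCAM at 2.38 and CDH1 at 0.4 TPM.

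In DMSO, EGR1, NAB1 and NAB2 were well expressed and EGR2, EGR3 and EGR4 were near the floor. On the TPM scale, which allows genes to be compared per length, the median over 18 DMSO wells was 44.6 for NAB2, 31.0 for EGR1, 24.7 for NAB1, 0.31 for EGR2, 0.17 for EGR3 and 0.085 for EGR4. EGR1 made up a median of 98.0% of the summed TPM of the 4 EGR genes. In CPM, leaving out DMSO 10, EGR1 ran from 42.6 to 96.7 (median 67.6), NAB1 from 30.1 to 47.3 (median 36.8) and NAB2 from 60.8 to 99.9 (median 75.4) over 17 wells. EGR2 ran from 0.272 to 1.10 CPM (median 0.62), EGR3 from 0.199 to 0.674 CPM (median 0.382) and EGR4 from 0 to 0.993 CPM (median 0.129). At such levels a well holds few reads of these 3 genes. Over all 17 wells together EGR2 had 451 counts, EGR3 had 267 counts and EGR4 had 144 counts.

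The well DMSO 10 stood apart in EGR1, EGR2 and EGR4. It held 690.75 CPM of EGR1 (317 counts, 95% Poisson interval 616.8 to 771.1 CPM), 15.3 CPM of EGR2 (7 counts, 6.13 to 31.4 CPM) and 85.0 CPM of EGR4 (39 counts, 60.4 to 116.2 CPM). Each level was above the highest of the other 17 DMSO wells. Since this well had served to pick EGR2 and EGR4, the intervals describe counting error only and no test is read from them. The level was 10.4-fold the mean of those wells for EGR1, 22.7-fold for EGR2 and 435-fold for EGR4. EGR3 was at 0 counts, which allows up to 6.54 CPM, so an excess of EGR3 of that size could not be seen at this depth. NAB1, at 37.0 CPM, was inside the range of the other wells, and NAB2, at 108.95 CPM (50 counts, 80.9 to 143.6 CPM), had an interval that reached into it. Among the 4 EGR genes, EGR1 and EGR4 had shares in this well close to those with homoharringtonine at 10000 nM, and EGR2 had a smaller one. EGR1 made up 84.1% of their summed TPM and EGR4 made up 13.96%, against a median of 83.7% and 12.7% in the 3 homoharringtonine wells. EGR2 made up 1.97%, from 7 counts, against 3.52 to 3.62%. The lower doses were further off for EGR1 and EGR4. Their median EGR1 shares were 97.9% (100 nM) and 90.7% (1000 nM), and their median EGR4 shares 0.834% and 6.51%. For EGR2 the share in DMSO 10 lay between those medians, 1.19% and 2.80%. The excess over the other DMSO wells equalled 12.0% of the homoharringtonine 10000 nM level for EGR1, 7.04% for EGR2 and 15.3% for EGR4. For NAB2, which was not above the DMSO range at that dose, the excess equalled 55.4%. Where these reads came from was not tested.

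With homoharringtonine EGR1, EGR2 and EGR4 were higher in all 9 wells than in every DMSO well other than DMSO 10, while EGR3 was within the DMSO range. EGR1 was at 3449.7, 3696 and 3978 CPM at 100 nM, at 6692, 5936 and 5487 CPM at 1000 nM, and at 5387, 5269 and 4953 CPM at 10000 nM. EGR2 was at 40.9, 42.0 and 45.6 CPM, then at 196, 171 and 156 CPM, and then at 212, 214 and 195 CPM at the same doses. EGR4 was at 21.5, 23.3 and 26.9 CPM at 100 nM, at 381, 315 and 246 CPM at 1000 nM, and at 607, 595 and 455 CPM at 10000 nM. For EGR4 the 3 doses did not overlap, for EGR2 the upper 2 doses did, and EGR1 was highest at 1000 nM. All these wells also exceeded DMSO 10, except that EGR4 at 100 nM was below it. EGR3, in the same wells, stayed between 0.264 and 0.642 CPM.

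The sizes of these differences, from edgeR with trimmed mean (TMM) scaling, are given as log2(Fold Change) with standard error (SE) and no test. For EGR1 they were 5.71 (SE 0.40), 6.30 (SE 0.41) and 6.01 (SE 0.41) at 100, 1000 and 10000 nM. For EGR2 they were 6.17, 8.11 and 8.26, and for EGR4 they were 6.50, 10.20 and 10.94. Without DMSO 10, EGR4 at 10000 nM was 11.38 (SE 0.32) in place of 10.94 (SE 0.66). EGR1 at 10000 nM was then 6.33 (SE 0.15), and EGR2 moved to 8.31. At 100 and 1000 nM, also without DMSO 10, EGR1 was at 6.01 and 6.64, EGR2 at 6.20 and 8.15, and EGR4 at 7.04 and 10.67. For EGR3 the values were 0.02, 0.62 and -0.35. In TPM, EGR1 reached 2596 ± 83.3 (SD, n = 3) at 10000 nM, EGR4 372 ± 50.8 and EGR2 110.4 ± 3.59, while EGR3 was at 0.13 ± 0.053. EGR4, the lowest of the 6 genes in DMSO, was thus the second highest of the 4 EGR genes in TPM at 1000 and 10000 nM.

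**Figure D1:**
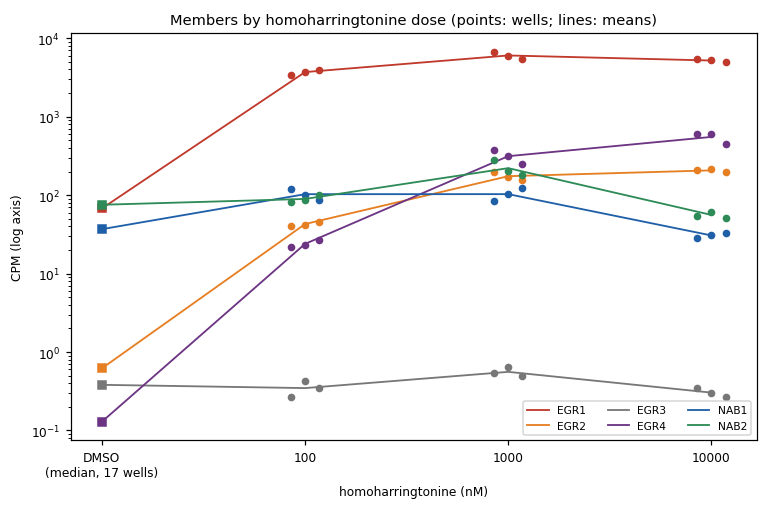
CPM of the 6 genes (log axis) against homoharringtonine dose in nM; points are wells, squares the median of 17 DMSO wells (DMSO 10 left out), and lines join that median to the mean of 3 wells at each dose. EGR1, EGR2 and EGR4 lay above DMSO at every dose, EGR3 stayed near 0.4 CPM, and NAB1 and NAB2 were lower at 10000 nM than at 1000 nM.

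The corepressors followed another course over the doses. NAB1 was at 120, 101 and 87.0 CPM at 100 nM and at 84.3, 102 and 123 CPM at 1000 nM, all above the DMSO range, but at 28.7, 30.7 and 32.6 CPM at 10000 nM, where 1 of 3 wells was below that range and 2 were at its low end. NAB2 was at 80.8, 87.9 and 99.8 CPM at 100 nM, inside the DMSO range. It was above that range at 1000 nM, with 277, 205 and 181 CPM, and at 54.9, 61.6 and 51.3 CPM at 10000 nM, where 2 of 3 wells fell below it. The log2(Fold Change) against DMSO was 1.70, 1.62 and -0.22 for NAB1, and 0.41, 1.63 and -0.45 for NAB2. Both corepressors were above the DMSO range together at 1000 nM and not at the other doses. STAT6, beside NAB2, was lower than DMSO at every dose, with a log2(Fold Change) of -0.58, -0.58 and -0.52, so it did not follow NAB2 over the doses.

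The step from 100 to 10000 nM was tested on the homoharringtonine wells alone with edgeR's quasi-likelihood test and Benjamini-Hochberg adjustment. The background was 57.7% of 17750 genes called at an adjusted p under 0.05, and of the 4 members other than EGR2 and EGR4, 1 was called higher and 2 lower at 10000 nM. Over all genes 5226 were called higher and 5024 lower with TMM scaling, 6759 and 3649 with library sizes alone, and 3852 and 5777 when wells were scaled to the 13 mitochondrial mRNAs. NAB1 fell by 1.93 on the log2 scale (SE 0.13, adjusted p = 8.0e-06 by edgeR), lower in 3 of 3 wells than in any 100 nM well. NAB2 fell by 0.87 (SE 0.12, adjusted p = 0.00034 by edgeR), also with no overlap. EGR1 rose by 0.30 (SE 0.07, adjusted p = 0.0080 by edgeR), which was not called when replicate 1 was left out (0.22, adjusted p = 0.14 by edgeR) nor when replicate 2 was (0.28, adjusted p = 0.12). EGR1 was at 0.49 with library sizes alone and at 0.11 (adjusted p = 0.57 by edgeR) with mitochondrial scaling, whereas NAB1 and NAB2 were lower under each scaling, from -1.75 to -2.11 and from -0.68 to -1.06. EGR3 did not pass (-0.37, SE 0.33, adjusted p = 0.35 by edgeR). EGR2 and EGR4 were 2.09 (SE 0.09) and 4.34 (SE 0.15) higher at 10000 nM, and since these wells had served to pick them, no test is read from this. STAT6 differed by 0.06 (SE 0.10) between the doses.

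**Figure D2:**
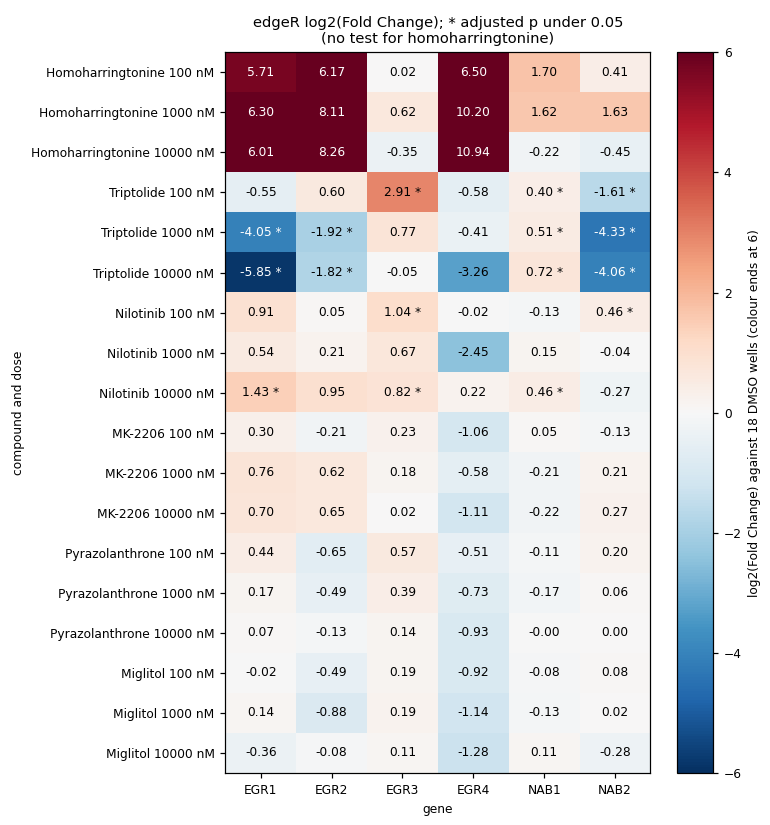
edgeR log2(Fold Change) of the 6 genes (columns) at each compound and dose (rows) against 18 DMSO wells, with an asterisk where the adjusted p was under 0.05 and no test for homoharringtonine; scaling is TMM, and NAB1 with triptolide is negative with mitochondrial scaling. The values past 4 in size belong to EGR1, EGR2 and EGR4 with homoharringtonine and to EGR1 and NAB2 with triptolide.

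With triptolide at 1000 and 10000 nM EGR1 and NAB2 fell under each scaling tried, while NAB1 was higher with TMM scaling and lower with mitochondrial scaling. EGR1 was at 44.1, 71.0 and 45.8 CPM at 100 nM, at 0.945, 7.21 and 3.23 CPM at 1000 nM and at 0.375, 1.24 and 1.35 CPM at 10000 nM. NAB2 was at 21.0, 0 and 21.0 CPM at 100 nM, where the 0 belongs to the library of 70414 counts and allows up to 42.6 CPM. It was at 1.79, 4.03 and 2.74 CPM at 1000 nM and at 3.81, 3.29 and 2.64 CPM at 10000 nM. Both genes lay below all DMSO wells in 6 of 6 wells at the upper 2 doses, and NAB2 also at 100 nM. NAB1 was at 33.6, 56.8 and 43.2 CPM, then 32.7, 35.4 and 46.0 CPM, and then 43.9, 42.6 and 39.0 CPM, within the DMSO range in all but 1 well, the shallowest.

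At 10000 nM, where 72.1% of 18483 genes were called, 4 of 6 members were, 1 up and 3 down. EGR1 fell by 5.85 on the log2 scale (SE 0.85, adjusted p = 1.2e-06 by edgeR) and NAB2 fell by 4.06 (SE 0.19, adjusted p = 2.2e-15). EGR2, at 0.173, 0.104 and 0.137 CPM, fell by 1.82 (SE 0.67, adjusted p = 0.018), but was not called without replicate 2 (adjusted p = 0.076 by edgeR) or without replicate 3 (adjusted p = 0.054). EGR3 (-0.05, SE 0.31, adjusted p = 0.90) and EGR4 (-3.26, SE 2.73, adjusted p = 0.27) did not pass. NAB1 rose by 0.72 (SE 0.10, adjusted p = 1.3e-06 by edgeR). This last direction is relative to the scaling, as NAB1 was 0.18 higher and not called with library sizes alone (adjusted p = 0.13), and 2.04 lower (log2 change -2.04, adjusted p = 8.2e-11) with mitochondrial scaling, which moved the median gene by -2.76. Over all genes 5990 were called up and 7343 down with TMM scaling, 3329 and 9873 with library sizes alone, and 12 and 18178 with mitochondrial scaling. In bulk wells fewer cells and less RNA per cell cannot be told apart. Without DMSO 10, EGR1 fell by 5.52 (SE 0.35) and NAB2 fell by 4.06. STAT6 rose by 1.15 (SE 0.09, adjusted p = 9.9e-12 by edgeR) with TMM scaling, opposite to NAB2.

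At 1000 nM, where 67.5% of 18533 genes were called, the same 4 of 6 members passed, again 1 up and 3 down. EGR1 fell by 4.05 (SE 0.79, adjusted p = 7.3e-05 by edgeR), NAB2 fell by 4.33 (SE 0.23, adjusted p = 2.0e-14) and EGR2 fell by 1.92 (SE 0.81, adjusted p = 0.037). EGR2 was not called when any of replicates 1, 2 and 3 was left out (adjusted p from 0.060 to 0.11 by edgeR). NAB1 rose by 0.51 (SE 0.12, adjusted p = 0.00089 by edgeR) with TMM scaling and was 0.05 higher with library sizes alone. Scaled to mitochondrial mRNAs, NAB1 was at -1.95 and EGR3 at -1.64. EGR3 was at 0.77 (SE 0.38, adjusted p = 0.071 by edgeR), and without the 2 shallow libraries of this comparison it was at 1.14 (SE 0.36, adjusted p = 0.0086). Without those libraries EGR1 fell by 3.31 (SE 0.35, adjusted p = 2.7e-08 by edgeR).

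EGR3 reached its highest level of all 19 groups at the lowest triptolide dose. In its 2 deeper wells at 100 nM EGR3 was at 1.60 CPM (55 counts) and 3.45 CPM (36 counts), above the 17 DMSO wells other than DMSO 10, of which the highest was at 0.674 CPM. The shallow well held 0 counts. At 1000 nM EGR3 was at 0.105, 0.937 and 0.453 CPM and at 10000 nM at 0.375, 0.207 and 0.22 CPM, which overlapped DMSO. At 100 nM 56.9% of 18471 genes were called and 3 of 6 members passed, 2 up and 1 down. EGR3 rose by 2.91 (SE 0.29, adjusted p = 7.7e-09 by edgeR) and by 2.95 without the shallow libraries. Leaving out 1 replicate moved this between 2.36 and 3.36. With library sizes alone EGR3 rose by 2.59, and with mitochondrial scaling by 1.24 (SE 0.37, adjusted p = 0.0034 by edgeR), so its direction at this dose held under each scaling. NAB2 fell by 1.61 (SE 0.20, adjusted p = 2.9e-07 by edgeR). NAB1 rose by 0.40 (SE 0.13, adjusted p = 0.014), was at -1.21 with mitochondrial scaling, and was not called by DESeq2 (0.35, adjusted p = 0.057). EGR1 (-0.55, SE 0.62, adjusted p = 0.47 by edgeR, and -0.21, adjusted p = 0.45, without DMSO 10), EGR2 (0.60, SE 0.64, adjusted p = 0.45) and EGR4 (-0.58, SE 2.45, adjusted p = 0.86) did not pass. STAT6 rose by 0.39 (SE 0.11, adjusted p = 0.0050 by edgeR).

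**Figure D3:**
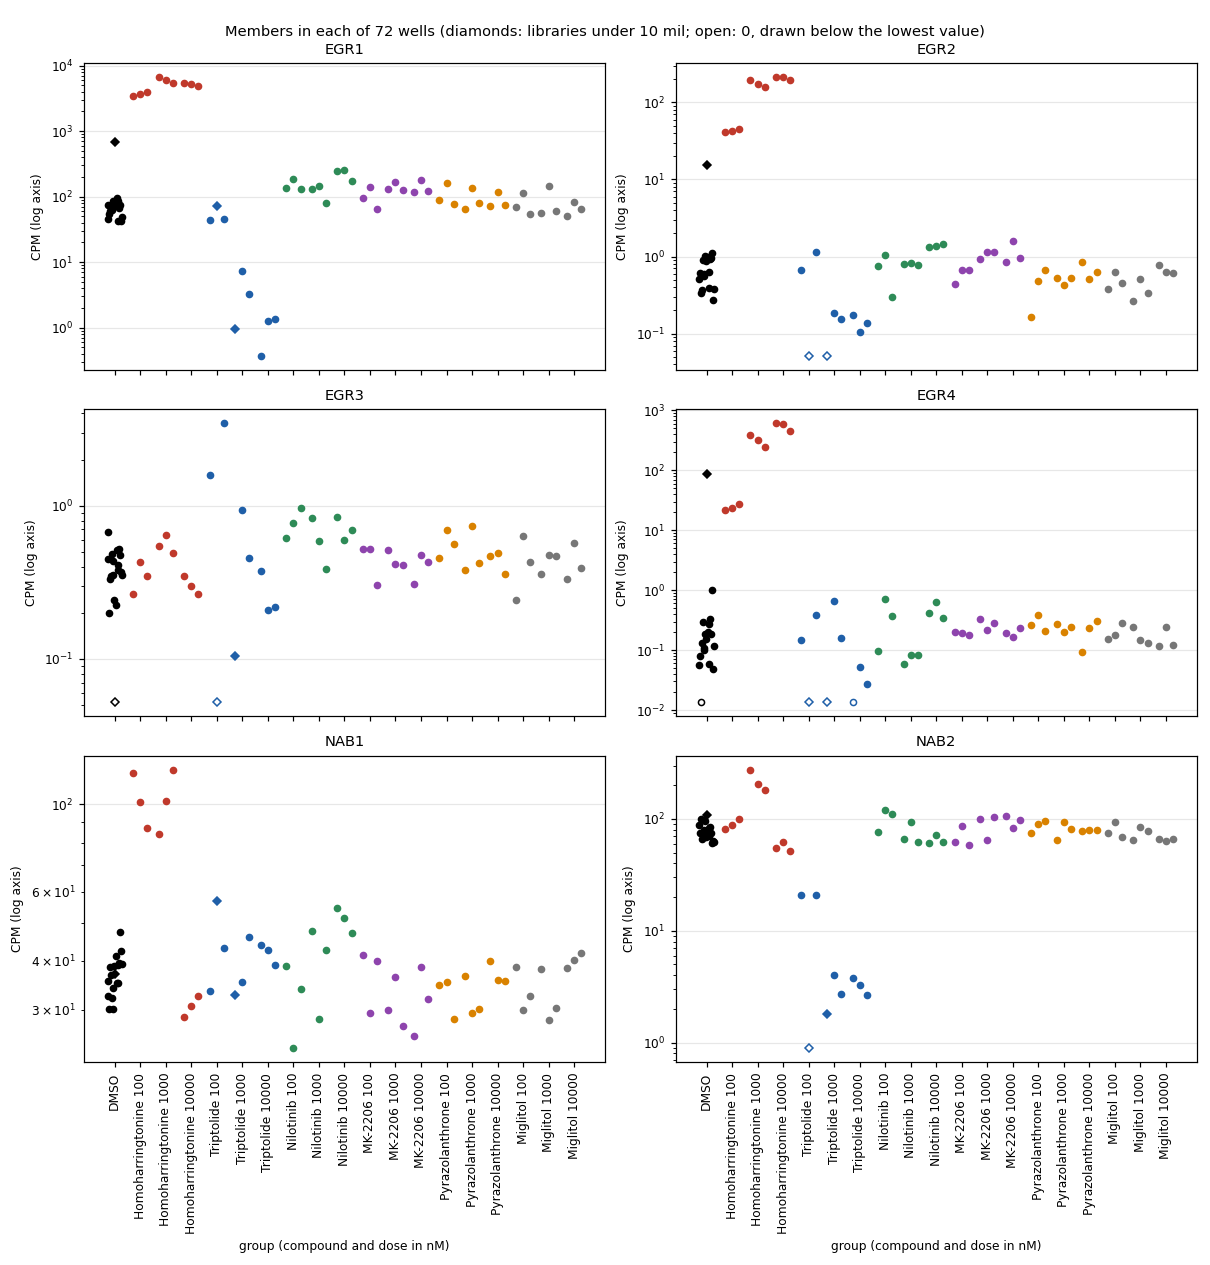
CPM (log axis) of each of the 6 genes in each of the 72 wells by group, with diamonds for the 3 libraries under 10 mil and open symbols for 0, drawn below the lowest value. DMSO 10 is the black diamond above the other DMSO wells in EGR1, EGR2 and EGR4, and triptolide 100 nM holds the 2 highest EGR3 values, 1.60 and 3.45 CPM.

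Nilotinib moved EGR1 and EGR3 upward at some doses. EGR1 was at 137, 189 and 130 CPM at 100 nM, at 131, 147 and 78.9 CPM at 1000 nM and at 248, 255 and 176 CPM at 10000 nM, where every well was above the 17 DMSO wells without DMSO 10. At 10000 nM 14.5% of 18562 genes were called, and 3 of 6 members passed, all up. EGR1 rose by 1.43 (SE 0.47, adjusted p = 0.042 by edgeR), and by 1.76 (SE 0.17) without DMSO 10. NAB1, at 54.3, 51.5 and 47.2 CPM, rose by 0.46 (SE 0.11, adjusted p = 0.0043 by edgeR) with TMM scaling, and was at -0.20 with mitochondrial scaling, which moved the median gene by -0.70. EGR3, at 0.84, 0.593 and 0.693 CPM, rose by 0.82 (SE 0.26, adjusted p = 0.030 by edgeR). EGR1 was not called with library sizes alone (1.41, adjusted p = 0.057 by edgeR), and neither EGR1 (0.69) nor EGR3 (0.15) was with mitochondrial scaling. NAB2 was at -0.27 (adjusted p = 0.19 by edgeR) with TMM scaling, and with mitochondrial scaling it was called at -1.01 (adjusted p = 0.017). EGR1 and EGR3 were each not called when any 1 of the 3 nilotinib wells was left out, and NAB1 was not when replicate 1 was. EGR2, at 1.31, 1.38 and 1.44 CPM, was above the 17 DMSO wells in 3 of 3 wells. It was not called against all 18 (0.95, SE 0.45, adjusted p = 0.17 by edgeR). Without DMSO 10 it was at 1.04 (SE 0.31). Since that well had served to pick EGR2, and leaving it out was chosen after seeing the data, no test is read from this.

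At the lower nilotinib doses the calls were fewer. At 100 nM, where 9.17% of 18465 genes were called, EGR3 rose by 1.04 (SE 0.26, adjusted p = 0.014 by edgeR) with wells at 0.618, 0.772 and 0.959 CPM. NAB2 rose by 0.46 (SE 0.14, adjusted p = 0.041 by edgeR) with wells at 76.6, 120 and 110 CPM, which overlapped DMSO. Neither was called without replicate 2 or without replicate 3. EGR1 was at 0.91 (SE 0.50, adjusted p = 0.27 by edgeR) against all 18 DMSO wells and at 1.27 (SE 0.18, adjusted p = 0.00011) without DMSO 10. At 1000 nM, where 4.15% of 18474 genes were called, 0 of 6 members passed. EGR3 was then at 0.67 (unadjusted p = 0.023 by edgeR, adjusted p = 0.21), the lone member with an unadjusted p under 0.05, and DESeq2 called 1 member, EGR1. EGR1 was at 0.54 (SE 0.52), and without DMSO 10 at 0.90 (SE 0.20, adjusted p = 0.0077 by edgeR).

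With MK-2206, pyrazolanthrone and miglitol 0 of 6 members were called by edgeR at each of the 9 combinations of compound and dose. Of these 54 values 1 had an unadjusted p under 0.05 by edgeR, NAB2 with miglitol at 10000 nM, and DESeq2 called 3, all EGR1. The background was 3.18%, 1.45% and 0.092% of genes with MK-2206, 7.76%, 0% and 4.84% with pyrazolanthrone, and 0%, 0% and 0% with miglitol, from 10000 to 100 nM. Where 0% of genes were called, the genes with an unadjusted p under 0.05 by edgeR numbered 1030 with pyrazolanthrone at 1000 nM and 4234, 1568 and 987 with miglitol from 10000 to 100 nM. The MK-2206 wells had EGR1 at 96.2, 139 and 64.6 CPM at 100 nM, at 131, 168 and 125 CPM at 1000 nM and at 119, 180 and 120 CPM at 10000 nM, so that at the upper 2 doses 6 of 6 wells were above the 17 DMSO wells. Against all 18 DMSO wells EGR1 was at 0.76 (SE 0.50, adjusted p = 0.63 by edgeR) and 0.70 (SE 0.50, adjusted p = 0.66) at these doses. Without DMSO 10 it was at 1.12 (SE 0.18, adjusted p = 0.0014 by edgeR) and 1.06 (SE 0.18, adjusted p = 0.00089). DESeq2, with all 18 wells, called EGR1 at both doses and with pyrazolanthrone at 100 nM. With pyrazolanthrone at 100 nM EGR1 was at 0.44 (SE 0.51, adjusted p = 0.63 by edgeR) and, without DMSO 10, at 0.77 (SE 0.21, adjusted p = 0.028).

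Over the 12 comparisons of the 4 weaker compounds, nilotinib, MK-2206, pyrazolanthrone and miglitol, EGR1 was called up in 1 against all 18 DMSO wells, in 6 without DMSO 10 and in 6 by DESeq2, and was called down in 0. These 12 comparisons share their DMSO wells. The median log2(Fold Change) of EGR1 over them was 0.37 with DMSO 10 and 0.70 without it by edgeR. By DESeq2, given all 18 wells at its default settings, it was 0.65, near edgeR's value without DMSO 10. How DESeq2 treated the counts of DMSO 10 was not tested. With DMSO 10, EGR2 and EGR4 were each called in 0 of 12. Since that well had served to pick these 2 genes, no calls of them are read without it. EGR3 was called in 2 of 12 both with DMSO 10 and without it. NAB1 and NAB2 were each called in 1 of 12 both ways. DESeq2 also called EGR2 and EGR4 in 0 and 0. For EGR4 the SE ran from 1.57 to 2.19 in these fits with DMSO 10, so changes of several fold could not be told from none. The EGR4 log2(Fold Change) was above 0 in 1 of 12 with DMSO 10 (median -0.92) and in 7 of 12 without it (median 0.08). Its mostly negative values against 18 wells therefore depended on that well.

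EGR1 also moved with the replicate number on the label. In 12 of 12 groups of the weaker compounds, replicate 2 held the highest EGR1 level of the 3 wells. Without replicate 2 of each group, and with all 18 DMSO wells kept, DMSO 10 included, the median EGR1 log2(Fold Change) over the 12 comparisons was -0.0025 in place of 0.37. Leaving out DMSO 10 but keeping replicate 2 gave 0.70. No fit left out both, so the -0.0025 does not give the difference from the other DMSO wells. Of the DMSO wells numbered 1, 2 and 3, the second was also the highest, at 75.8 CPM against 45.5 and 53.5 CPM. Replicate 2 held the highest level in 8 of 12 groups for EGR3, 7 of 12 for NAB2, 6 of 12 for EGR2, 5 of 12 for EGR4 and 3 of 12 for NAB1. The labels do not say what a replicate number stands for, and its part in the EGR1 values was not tested.

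**Figure D4:**
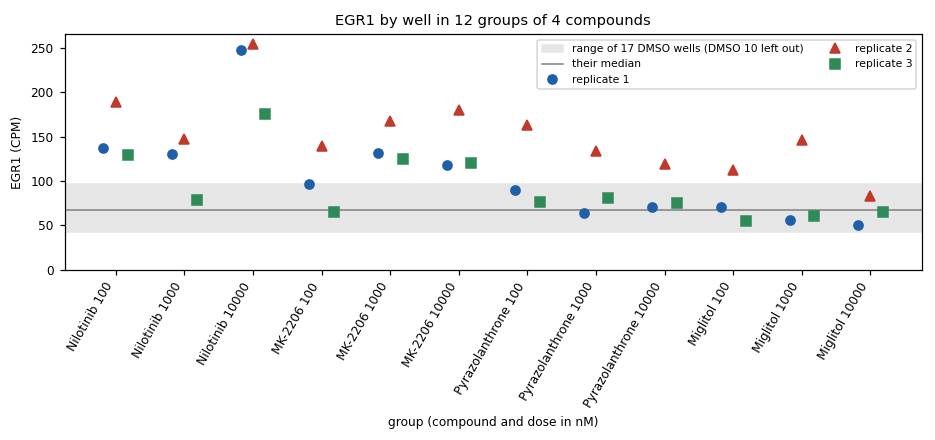
EGR1 CPM in each well of the 12 groups given nilotinib, MK-2206, pyrazolanthrone or miglitol, marked by replicate number; the grey band is the range of 17 DMSO wells, 42.6 to 96.7 CPM, and the line their median. Replicate 2 is the highest well in each group.

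The balance of the corepressors was compared as the log2 ratio of NAB2 to NAB1 counts within a well, which needs no scaling between wells. Over 18 DMSO wells it ran from 0.36 to 1.73, with a mean of 1.10 ± 0.39 (SD, n = 18). With triptolide it was -4.19, -3.14 and -4.07 at 1000 nM and -3.53, -3.70 and -3.89 at 10000 nM, below every DMSO well. In the 2 wells of 100 nM with NAB2 counts it was -0.68 and -1.04. The difference from DMSO was -4.90 at 1000 nM (exact two-sided permutation test, p = 0.0015, adjusted p = 0.011 over 15 comparisons) and -4.80 at 10000 nM (exact permutation test, p = 0.0015, adjusted p = 0.011), the smallest p that 3 wells against 18 can give. At 100 nM it was -1.96 (exact permutation test, n = 2, p = 0.011, adjusted p = 0.039). Nilotinib at 10000 nM had ratios of 0.16, 0.40 and 0.49 and differed by -0.75 (exact permutation test, p = 0.0045, adjusted p = 0.023). The other 11 comparisons did not pass, with differences from -0.40 to 0.57 and adjusted p from 0.18 to 0.9985 by the exact permutation test. No test was made for homoharringtonine, where the mean ratio was -0.19, 1.09 and 0.87 at 100, 1000 and 10000 nM.

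**Figure D5:**
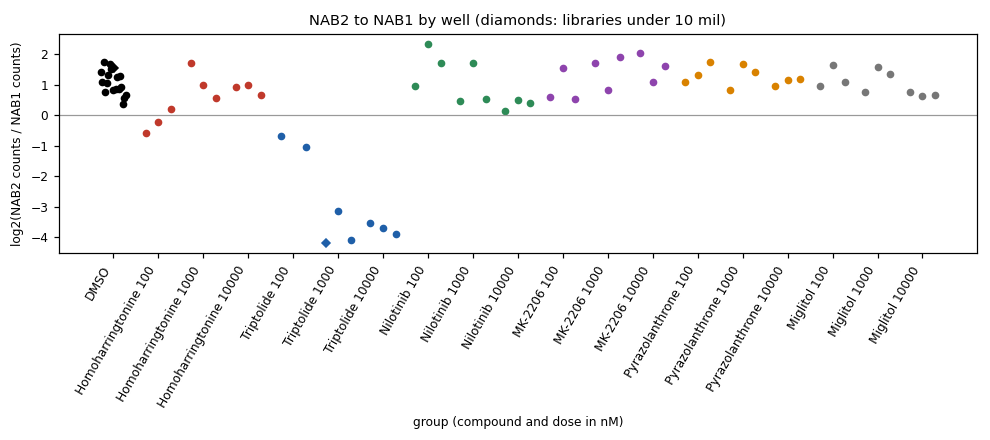
log2 ratio of NAB2 to NAB1 expected counts in each well by group; diamonds are libraries under 10 mil, and a well with 0 counts of NAB2 is not drawn. The triptolide wells at 1000 and 10000 nM lie between -4.19 and -3.14, and the DMSO wells between 0.36 and 1.73.

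The mean transcript length that RSEM assigns to a gene, which follows the mix of its isoforms, was compared at 10000 nM over wells with 10 or more counts of the gene. Of 23 exact permutation tests 1 passed, for NAB2 with homoharringtonine, a contrast that had served to pick EGR2 and EGR4, so its values are given as a description. Its length was 2628 ± 14.1 bases (SD, n = 3) against 2536 ± 31.3 bases (SD, n = 18) in DMSO, a difference of 92.0 bases. The NAB2 end that overlaps STAT6 lies within this gene, and its part in the length was not tested. For NAB1 the lengths overlapped widely, with 2377 ± 247 bases under homoharringtonine and 2263 ± 272 bases in DMSO. EGR1 was listed at 3138 bases in all wells and could not be tested.

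Among other genes of the pathway, 14 upstream genes (the RAF, MEK and ERK kinases, SRF and its partners), 9 cofactors or competitors and 24 genes known to be driven by EGR factors were followed, of which 23 of the last were tested. With triptolide at 10000 nM, against 72.1% of all genes, 11 of 14 upstream genes were called, 6 up and 5 down, with a median log2(Fold Change) of 0.10. Over all genes tested the median was -0.16. MAPK3, which encodes ERK1, rose by 1.48 (SE 0.11) and the ternary complex factor ELK3 rose by 1.09 (SE 0.09). The SRF coactivators MRTFA and MRTFB fell by 3.69 (SE 0.17) and 3.30 (SE 0.15). Of the cofactors 9 of 9 were called, 1 up and 8 down, with a median of -2.62. CHD3, a nucleosome remodeller of the NuRD complex, which NAB proteins recruit, rose by 1.95 (SE 0.09), while the helicase DDX20 fell by 4.88 (SE 0.28) and WT1, a zinc finger factor that binds EGR sites, fell by 3.89 (SE 0.21). Of the EGR-driven genes 18 of 23 were called, 9 up and 9 down, with a median of -0.02. THBS1 and FN1, which encode matrix proteins, rose by 1.78 (SE 0.09) and 1.75 (SE 0.07), while GADD45B, a stress sensor, fell by 5.66 (SE 0.25) and the growth factor gene PDGFA fell by 4.80 (SE 0.23). All of these values are relative to TMM scaling. With library sizes alone the upstream genes were called 2 up and 9 down, the cofactors 1 up and 8 down and the EGR-driven genes 8 up and 11 down, and with mitochondrial scaling all 14, 9 and 23 were called down.

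With homoharringtonine the same lists are given as counts of genes called by edgeR, and the genes named are taken from those called. No adjusted p is read for a single gene, since the contrast had chosen the members. Of all genes, 74.3%, 68.6% and 63.7% were called from 10000 to 100 nM. At 10000 nM 18 of 23 EGR-driven genes were called, 7 up and 11 down, with a median log2(Fold Change) of -0.25 against -0.04 over all genes, a share near the background. ARC, a synaptic immediate early gene, was at 2131 to 2875 CPM against 39.0 to 440.2 CPM in DMSO (5.35, SE 0.33), and GADD45A was at 317.5 to 338.5 against 23.0 to 91.5 CPM (3.54, SE 0.15). The membrane protease gene MMP14 and the myelin gene PMP22 were at -4.18 (SE 0.15) and -3.47 (SE 0.14). Upstream, 11 of 14 were called, 5 up and 6 down, with BRAF at 2.34 (SE 0.19) and the kinase gene RPS6KA3 at 0.87 (SE 0.30), and with ELK3 at -2.62 (SE 0.13) and MRTFB at -2.21 (SE 0.15). Of the cofactors 8 of 9 were called, 6 up and 2 down, with DDX20 at 1.77 (SE 0.16), the acetyltransferase gene EP300 at 1.19 (SE 0.07), HCFC1 at -2.48 (SE 0.15) and WT1 at -0.59 (SE 0.14). With mitochondrial scaling the cofactors were called 3 up and 2 down. Both comparisons share the 18 DMSO wells.

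With nilotinib 4 to 6 of the 23 tested EGR-driven genes were called at each dose, all up, and with MK-2206 2 to 5, all up, with TMM scaling. From 10000 to 100 nM that was 6, 4 and 5 of 23 with nilotinib, where 14.5%, 4.15% and 9.17% of all genes were called, and 5, 4 and 2 of 23 with MK-2206, where 3.18%, 1.45% and 0.092% were. Of all genes called, 55.6%, 58.3% and 60.7% were up with nilotinib and 69.6%, 74.2% and 94.1% with MK-2206. With mitochondrial scaling the calls at 10000 nM were 3 up and 8 down for nilotinib and 0 for MK-2206. PLAU, which encodes urokinase, was called in all 6 of these comparisons, with a log2(Fold Change) from 0.85 to 1.74. ELK3, which is on the upstream list and not among the 23, was called in all 6, from 0.39 to 0.69. Of the 14 upstream genes, 3, 1 and 3 were called with nilotinib from 10000 to 100 nM, and 1, 1 and 1 with MK-2206. PLAU, ELK3, THBS1, ICAM1 and this use of GADD45A were chosen after their values were seen. THBS1, which encodes thrombospondin, was called with MK-2206 at each dose (0.56 to 0.84) and with nilotinib at 100 and 1000 nM (0.54 at both). ICAM1, an adhesion molecule, was at 2.24 (SE 0.20) and GADD45A at 1.44 (SE 0.17) with nilotinib at 10000 nM. Pyrazolanthrone had 5, 0 and 3 of 23 called from 10000 to 100 nM, where 7.76%, 0% and 4.84% of all genes were. Among these 23 genes at 1000 nM, 2 had an unadjusted p under 0.05 by edgeR and DESeq2 called 0. With miglitol 0 of 23 were called at each dose by edgeR. At an unadjusted p under 0.05 there were 4, 4 and 3 from 10000 to 100 nM, and DESeq2 called 0, 2 and 0.

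Set in order over the 19 groups by mean CPM, without the 3 shallow libraries, the members fell into different patterns. EGR1 was highest with homoharringtonine at 1000 nM (6038 CPM), 10000 nM (5203 CPM) and 100 nM (3708 CPM), none of which overlapped the next. From nilotinib at 10000 nM (226 CPM) down to miglitol at 10000 nM (65.9 CPM) each group overlapped its neighbour, with DMSO at 66.6 CPM among them, and triptolide at 100 nM (45.0 CPM) lay within the DMSO range. Triptolide at 1000 nM (5.22 CPM) and 10000 nM (0.988 CPM) closed the order without overlap. EGR4 opened with homoharringtonine in the order of dose, and the next group, nilotinib at 10000 nM, was at 0.47 CPM. EGR2 had the same 3 groups first, of which the upper 2 doses overlapped, and the 2 upper triptolide doses last. EGR3 had 1 group apart from the rest, triptolide at 100 nM (2.52 CPM), and from nilotinib at 100 nM (0.783 CPM) to triptolide at 10000 nM (0.267 CPM) all 18 groups overlapped their neighbours. NAB1 was at 103.04 and 102.9 CPM with homoharringtonine at 1000 and 100 nM and at 51.0 CPM with nilotinib at 10000 nM, and the other 16 groups, from 41.8 to 30.7 CPM, overlapped their neighbours. The lowest of those nilotinib wells, at 47.2 CPM, was inside the DMSO range, which reached 47.3 CPM. NAB2 had homoharringtonine at 1000 nM (221 CPM) apart at the top and the 3 triptolide groups at the bottom, below homoharringtonine at 10000 nM (56.0 CPM).

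The genes whose levels most resembled each member over the 19 groups were found by Pearson's r of mean log2(CPM + 1), leaving out the 3 shallow libraries. Only the 14340 genes with a mean of at least 1 CPM over all wells were compared with the members. EGR1 was most like PPP1R15A (r = 0.99), NDUFAF1 (r = 0.99) and DUSP2 (r = 0.99). EGR2 was most like SLC7A5P1, CHGA and an unnamed lncRNA (ENSG00000248596), each at r = 0.99, and EGR4 was most like LINC01419, ACTN2 and FRG2C, at r = 0.996, 0.996 and 0.993. NAB2 was most like SNAPC2 (r = 0.99), SLC66A1 (r = 0.98) and PEX14 (r = 0.98). EGR3 (FAT2, LRP4-AS1 and OPN3, r = 0.88 to 0.89) and NAB1 (NTRK3, TCERG1L and IQCG, r = 0.82 to 0.83) had less close matches. The points share their DMSO wells and are dominated by homoharringtonine or triptolide. The genes named for EGR2 and EGR4 had DMSO medians from 0.134 to 0.65 CPM. A gene that low in DMSO could pass the filter only through groups where it was high. EGR2 and EGR4 had themselves been picked for their levels with homoharringtonine, so a high r was set in advance and nothing is read from it. Without the homoharringtonine groups 1 of these 18 genes, PPP1R15A, stayed among the 3 most like its member.

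Among the members themselves, over the 19 groups, EGR2 and EGR4 had the highest r (0.99), which was 0.31 over the 16 groups without homoharringtonine. EGR1 and NAB2 were at r = 0.73 over 19 groups and at 0.94 over 16, where triptolide sets both low. NAB1 and NAB2 were at 0.15 and -0.46. EGR3 lay between -0.18 and -0.03 with each of the other members over 19 groups. These are descriptions over group means.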

How the data were processed

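U2OS cells in 72 wells were profiled by stranded polyA RNA-seq after 12 h of compound or DMSO. The authors deposited 1 table per well from RSEM (GRCh38; the version and annotation are not given in the sources used here), with expected counts, the deposited TPM values and FPKM, which the authors scaled per length and depth. TPM served for levels between genes, and FPKM was not used.

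Here 92 spike-in rows (0.0158 to 1.12% of counts per well) were left out, expected counts (11.63% not whole) were rounded, and each compound and dose was tested against 18 DMSO wells with edgeR 4.0.16 in R 4.3.3 (quasi-likelihood test, TMM scaling, filterByExpr, Benjamini-Hochberg adjusted p under 0.05). Alternatives were DESeq2 1.42.0, other scalings and filters, a fold limit, 1 fit of all wells, left-out libraries and a replicate block. Exact permutation tests used scipy 1.17.1. Fits were tested on simulated data. The members and the gene lists, taken from textbook knowledge, were chosen with earlier results of these data known. Genes other than members were named for being the 2 largest called rises and falls of a list with triptolide or homoharringtonine at 10000 nM, for overlapping a member, or as the 3 most like it, with exceptions given in place. CPM excludes spike-ins, likeness used log2(CPM + 1), and GENCODE 44 named 56104 of 60279 genes. Intervals are at 95% and exact Poisson. Of the marker genes, 1 is not reported here.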

Additional observations from a re-analysis of the deposited data

How the results depend on the processing

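Of the summary results, 164 values under an alternative stayed on their side of the threshold or close to their count, 14 were weaker, 13 stronger and 7 moved. Of the values for single genes, 1016 stayed, 40 were weaker, 27 stronger, 40 moved and 5 reversed. The causes of these changes were not tested. The reversals came with mitochondrial scaling, under which NAB1 was at -0.20 with nilotinib at 10000 nM and at -2.04, -1.95 and -1.21 with triptolide from 10000 to 100 nM, and EGR3 was at -1.64 with triptolide at 1000 nM. Members called with nilotinib at 10000 nM numbered 3, against 1 with a fold above 2, 1 without a filter, 1 with mitochondrial scaling, which was NAB2, lower and not among the 3, and 0 to 1 when 1 replicate was left out. With nilotinib at 100 nM they numbered 2, against 1 with a fold above 2, without a filter, with library sizes only or with mitochondrial scaling, and 0 to 2 when 1 replicate was left out. The 0 called with nilotinib at 1000 nM, pyrazolanthrone at 100 nM and MK-2206 at 1000 and 10000 nM became 1, EGR1, with DESeq2 and without the shallow libraries, here DMSO 10. Leaving out DMSO 10 was chosen after seeing the data. Between homoharringtonine at 10000 and 100 nM 5 members, EGR2 and EGR4 included, were called, and 3 with a fold above 2. The NAB2 to NAB1 ratio passed in 4 of 15 comparisons and the transcript length in 1 of 23, and each passed in 0 when any 1 replicate was left out. For the ratio, 2 wells against 18 cannot go below p = 0.011 by the exact permutation test, which adjusted to 0.053 or more, so these 0 say nothing about stability. The differences then ran from -5.23 to -4.70 with triptolide at 1000 and 10000 nM and from -0.82 to -0.65 with nilotinib at 10000 nM. The NAB2 length, the 1 test of 23 that passed, has that same floor of p with 2 wells against 18. Its 0 therefore says nothing about stability either. Of the 18 genes most like a member, 1 stayed without the homoharringtonine groups.

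By the rule used here the replicate numbers in the labels did not pair the wells with DMSO. The deviations of same-numbered wells correlated at a mean r of -0.056 over 18 comparisons, and in 1 of them were all pairs above 0.1. Among the 12 groups of the weaker compounds the mean r was 0.099 for the same number and -0.052 for other numbers, and EGR1 was highest in replicate 2 of each. With a replicate block, on DMSO wells 1 to 3, the members called became 1 (EGR1) with pyrazolanthrone at 10000 nM and with MK-2206 at 10000 and 1000 nM, 2 (NAB1 and NAB2) with miglitol at 10000 nM, 5 with nilotinib at 10000 nM and 0 with nilotinib at 100 nM. Over all genes the block moved the calls at 10000 nM from 1431 of 18441 to 6136 of 17619 with pyrazolanthrone and from 0 of 18466 to 8195 of 17973 with miglitol. For nilotinib they went from 2686 of 18562 to 5658 of 17946 at 10000 nM and from 1693 of 18465 to 0 of 17635 at 100 nM. For MK-2206 they went from 589 of 18522 to 439 of 17650 at 10000 nM and from 267 of 18462 to 45 of 17700 at 1000 nM.

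Depth limits EGR2, EGR3 and EGR4, which few reads reached outside homoharringtonine, and values at the 3 shallow libraries. Nilotinib calls of members rested on 3 wells of which leaving out 1 ended most of them, and calls of EGR1 with the weaker compounds depended on whether DMSO 10 was kept and on the tool, since DESeq2 made 6 of 12 with it kept. Changes with triptolide are relative to the scaling used.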
